A study of Mus musculus with 12 samples.

Results

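Glutamate and GABA receptor subunit genes were examined in peak lists of histone H3 acetylated at lysine 27 (H3K27ac), a mark of active promoters and enhancers, from whole cortex of E15.5 mouse embryos, a stage at which cortical neurons are still being born. The 32 genes were chosen by name among the 21883 protein-coding genes of the RefSeq table: 3 AMPA, 5 kainate, 7 NMDA and 1 delta subunit gene, 7 metabotropic glutamate receptor genes, 7 GABA-A subunit genes and 2 GABA-B subunit genes. The wild-type group (WT, n = 3 libraries) was Prdm16 flox/flox without Cre. The conditional knockout group (cKO, n = 3 libraries) was Emx1Ires-Cre; Prdm16flox/flox, so all samples were homozygous for floxed Prdm16, a gene for a histone-modifying transcriptional regulator. The Emx1 driver acts in dorsal forebrain progenitors and the cells they give rise to, while whole cortex also holds interneurons, vessels and other cells of different origin. In such bulk samples, fewer cells of a type and less of the mark per cell cannot be told apart. Whether replicates are different embryos or litters is not stated in the labels. The p-values therefore reflect the spread between these libraries alone, and that spread may be technical.

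Ionotropic glutamate receptors are cation channels that carry fast excitation, whereas metabotropic glutamate receptors act through G proteins. GABA-A receptors are chloride channels built mostly from alpha, beta and gamma subunits, and GABA-B receptors are obligate heterodimers coupled to G proteins. Subunit composition changes between embryonic and mature cortex, and GABA can depolarize immature neurons because their chloride level is high. The comparison asked which subunit genes already carried H3K27ac before birth, and whether the length of marked chromatin at these genes differed between genotypes.

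Between 48168 and 75563 peaks were listed per WT library and between 55015 and 59209 per cKO library. The lists covered 53.9 to 92.1 Mb in WT and 63.5 to 72.9 Mb in cKO, and the list of WT replicate 3 was the shortest of the 6. No read counts were available, so the depth behind each list is unknown. By their library identifiers, batch A held replicates 1 and 2 and batch B held replicate 3, for WT and cKO alike. Gene starts of cortical markers were marked in all 6 libraries for 5 of 6 excitatory neuron genes, 6 of 6 radial glia genes and 6 of 6 interneuron genes. The same held for 0 of 5 endothelial, 0 of 4 microglial, 1 of 4 meningeal and 0 of 4 oligodendrocyte precursor genes, and for 0 of 4 liver and muscle genes. No peak lay in the windows of Tek, Col3a1, Olig1 or Alb in any library. The summed covered length of the interneuron markers ranged from 110846 to 157667 bp in WT and from 136833 to 152814 bp in cKO.

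Promoter windows of 300 bases (250 before to 50 after the start, RefSeq, GRCm38.p6) were found for 24 of the 32 genes, and the 8 without an entry were Gria1, Grik1, Grin2a, Grin2b, Grin3a, Grid1, Grm4 and Grm5. The sequences below show the promoters at both extremes of marking. They are written 5′ to 3′ on the gene's strand, with each CG dinucleotide in capitals. The first 3 belong to the starts with the longest peak cover: Gabra2 (chr5:71095800-71096099, minus strand), Grik3 (chr4:125490446-125490745, plus strand) and Gria2 (chr3:80802786-80803085, minus strand).
Gabra2: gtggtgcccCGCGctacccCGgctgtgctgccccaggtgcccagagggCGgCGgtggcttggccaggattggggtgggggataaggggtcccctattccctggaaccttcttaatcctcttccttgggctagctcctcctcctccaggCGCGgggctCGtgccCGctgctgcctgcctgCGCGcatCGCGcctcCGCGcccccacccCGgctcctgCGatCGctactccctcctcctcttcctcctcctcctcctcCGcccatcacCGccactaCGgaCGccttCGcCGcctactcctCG
Grik3: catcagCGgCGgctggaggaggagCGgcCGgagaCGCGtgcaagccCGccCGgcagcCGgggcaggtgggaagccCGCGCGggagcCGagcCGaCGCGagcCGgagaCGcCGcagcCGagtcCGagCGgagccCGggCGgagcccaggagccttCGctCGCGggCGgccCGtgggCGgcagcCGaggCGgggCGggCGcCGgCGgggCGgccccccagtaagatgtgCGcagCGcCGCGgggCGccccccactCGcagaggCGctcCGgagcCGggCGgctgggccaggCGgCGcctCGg
Gria2: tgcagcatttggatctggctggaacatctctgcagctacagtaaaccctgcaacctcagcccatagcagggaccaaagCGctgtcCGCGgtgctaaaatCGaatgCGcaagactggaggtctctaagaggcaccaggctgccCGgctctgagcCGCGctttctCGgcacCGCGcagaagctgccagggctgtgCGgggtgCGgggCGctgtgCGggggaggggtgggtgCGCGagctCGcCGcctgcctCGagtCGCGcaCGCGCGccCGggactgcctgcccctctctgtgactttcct
The other 3 belong to starts that were not marked in every library: Grin2c (chr11:115267194-115267493, minus strand), Grin3b (chr10:79970474-79970773, plus strand) and Grm6 (chr11:50850435-50850734, plus strand). Grin2c was unmarked throughout, and the other two were added after their values were seen.
Grin2c: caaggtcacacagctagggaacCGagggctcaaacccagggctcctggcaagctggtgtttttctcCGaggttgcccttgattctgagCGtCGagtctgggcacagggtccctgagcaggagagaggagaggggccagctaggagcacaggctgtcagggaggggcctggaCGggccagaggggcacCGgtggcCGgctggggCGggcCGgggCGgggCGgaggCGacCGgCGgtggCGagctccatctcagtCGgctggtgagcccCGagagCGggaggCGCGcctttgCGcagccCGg
Grin3b: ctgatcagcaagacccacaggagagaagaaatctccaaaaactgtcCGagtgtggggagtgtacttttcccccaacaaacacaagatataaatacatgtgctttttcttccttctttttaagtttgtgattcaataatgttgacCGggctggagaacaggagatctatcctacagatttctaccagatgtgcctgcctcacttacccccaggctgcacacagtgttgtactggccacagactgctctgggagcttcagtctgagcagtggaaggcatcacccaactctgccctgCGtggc
Grm6: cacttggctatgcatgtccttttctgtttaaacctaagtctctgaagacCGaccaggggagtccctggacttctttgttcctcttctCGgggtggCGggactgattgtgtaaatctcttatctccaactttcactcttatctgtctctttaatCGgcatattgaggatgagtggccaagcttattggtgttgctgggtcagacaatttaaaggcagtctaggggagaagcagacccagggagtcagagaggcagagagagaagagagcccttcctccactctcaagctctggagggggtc

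The 3 promoters under the longest cover held 25 (Gabra2), 50 (Grik3) and 26 (Gria2) CG dinucleotides. Among the incompletely marked starts, Grin3b held 3 and Grm6 held 4, but the promoter of Grin2c held 22 and still lay under no peak. Conversely, the start of Gabrg1 was marked in all 6 libraries with 3 CG dinucleotides in its window, and that of Gabbr2, the least covered of the fully marked starts, had 46. The median was 13 CG dinucleotides over the 30 promoter windows of the 24 subunit genes and also 13 over all 21262 promoter windows of protein-coding genes. The letters GGGCGG, searched on both strands and containing a CG themselves, were present in 16 of the 30 windows (53.3%) and in 46.2% of all windows of this length. These matches describe the letters only.

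Most subunit genes were already marked at a gene start before birth. A start was counted as marked when a peak lay within 2 kb of a listed start, or of either gene end for the 8 genes named above. By this definition 28 of the 32 genes (87.5%) were marked in all 6 libraries, beside 59.4% of all 21883 genes. All 3 AMPA, 5 kainate, 7 GABA-A and 2 GABA-B genes and the delta gene were among them, as were 4 of 7 NMDA genes and 6 of 7 metabotropic genes. The exceptions were Grin2a, Grin2c, Grin3b and Grm6. With only peaks of a −log10 q of at least 5, 20 of the 32 genes were marked in all 6 libraries. The share of all genes at that threshold is not given here.

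**Figure D1:**
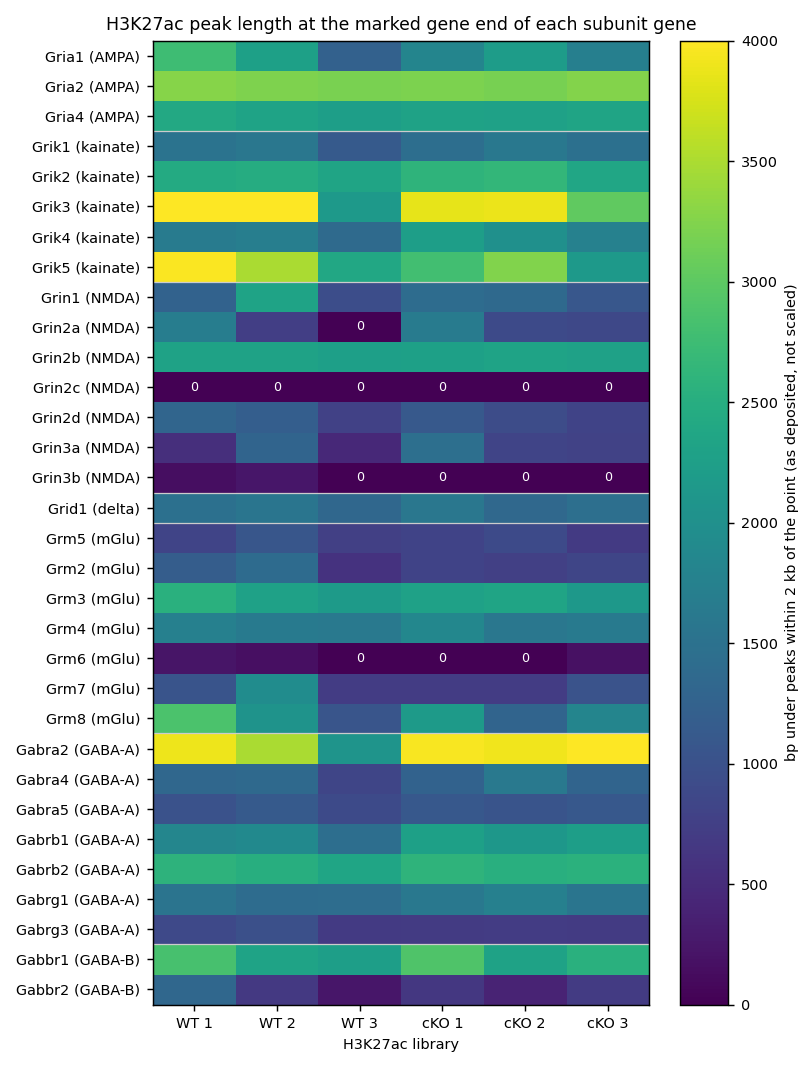
Base pairs under H3K27ac peaks within 2 kb of the marked gene start or end (colour scale, bp as deposited, not scaled) for the 32 subunit genes (rows, by receptor class) in the 6 libraries (columns). Zeros are printed. Gabra2, Grik3 and Gria2 have the longest mean cover, and zeros occur only in Grin2a, Grin2c, Grin3b and Grm6.

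Among the AMPA genes, the start of Gria2, whose subunit sets the calcium permeability of the channel, lay under 3272, 3228 and 3196 bp of peak in WT and 3217, 3180 and 3255 bp in cKO. The peak ran past the 2 kb window, so these values are capped by its edge. The whole region (chr3:80797392-80804106) held 6715, 6563 and 5467 bp in WT and 6571, 6411 and 6395 bp in cKO. WT replicate 3 was the lowest there and the genotypes overlapped. The longest single peak at the start averaged 6162 bp. By the authors' −log10 q value, the strongest peak there stood at the 98.9th percentile of its own list (median over the libraries). The percentiles below are of the same kind and do not rank length. The starts of Gabra2 (94.2nd percentile), Gabbr1 (94.0th) and Gabrb2 (91.4th) were the other 3 above the 90th percentile. Gabra2 encodes an alpha subunit typical of embryonic and young forebrain, Gabbr1 the ligand-binding GABA-B subunit, and Gabrb2 a beta subunit. The median over the 28 fully marked genes was the 71.4th percentile, and the range was 33.4 to 98.9.

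The NMDA genes divided at their starts. Grin1, the obligatory subunit, had 1263, 2319 and 950 bp of peak in WT and 1420, 1360 and 1087 bp in cKO. Grin2b, the subunit prominent in embryonic cortex, had 2302, 2313 and 2260 bp in WT and 2279, 2319 and 2282 bp in cKO at its marked end. Both genes were covered in every library, and the Grin2b peak ran past the window, whose edge caps its values. Grin2a, which becomes prominent after birth, had 1700, 746 and 0 bp in WT and 1666, 903 and 860 bp in cKO. The missing value was that of WT replicate 3, the shortest list. Grin2c, best known from cerebellar granule cells, had 0 bp in all 6 libraries. The glycine-binding subunit gene Grin3b had 155 and 239 bp in WT replicates 1 and 2 and 0 bp in the other 4 libraries. Grm6, known from retinal ON bipolar cells, had 232, 166 and 0 bp in WT and 0, 0 and 185 bp in cKO.

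Adjacent GABA-A genes shared a mark. The listed starts of Gabra4 and Gabrb1 on chromosome 5 had the same 1333, 1368 and 830 bp of peak in WT and 1252, 1617 and 1295 bp in cKO, so their values at that point are not independent. Gabrb1 had a further marked start at chr5:71699932, with 1843, 1896 and 1443 bp in WT and 2272, 2121 and 2241 bp in cKO. The values at that start were higher in the 3 cKO than in the 3 WT libraries before scaling to list length. The least covered fully marked start was that of Gabbr2, the GABA-B subunit that couples to the G protein, with 664 bp on average.

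Cover was next measured over each gene body with 20 kb on both sides, as the number of base pairs under peaks scaled to the mean list total of 72736700 bp. Scaling raises the value of an equally long peak in a shorter list, so WT replicate 3 gains most. Per length of window, cover ran from 0.309% at Gabrg3, a gamma subunit gene of 671 kb, to 17.8% at Gabbr1, a gene of 28.3 kb. The 8 genes under 70 kb had 1.66% to 17.8% of their windows covered and the 24 longer genes 0.309% to 5.95%, with a median of 2.03% over all 32 and 3.60% over all protein-coding genes. In short windows much of the cover lay outside the gene: only 0.815% of the covered bases of Grin3b and 11.2% of those of Grin2c were inside the gene body. Both windows hold other genes (5 and 3), so a covered window did not mean a marked subunit gene there. At Gria2 and Grin2a 100% of the covered bases were inside the gene.

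**Figure D2:**
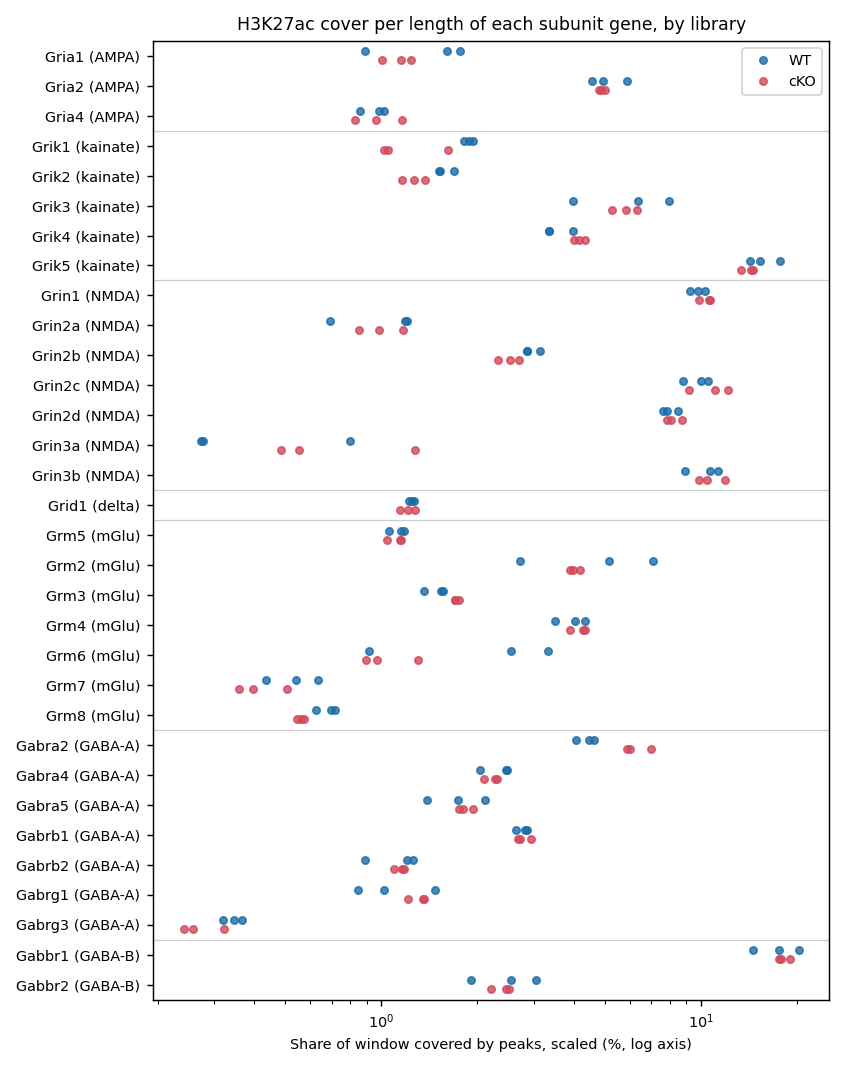
Share of each window (gene body with 20 kb on both sides) under H3K27ac peaks after scaling to list length (horizontal log axis, %), 1 point per library, WT in blue and cKO in red, for the 32 subunit genes by receptor class. Gabbr1 and Grik5 (14.9% on average) lie at the right and Gabrg3 at the left, and the genotypes overlap in most rows.

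No subunit gene differed between genotypes in covered length at an adjusted p below 0.05. The limma fit over 15355 genes called 106 genes (0.69%), 57 longer and 49 shorter in cKO, and 0 of the 31 subunit genes tested, in either direction (backgrounds 0.371% longer and 0.319% shorter). Quantile normalization added after scaling gave 4 longer and 14 shorter over all genes, and 0 subunit genes called. At an unadjusted limma p below 0.05 there were 6 subunit genes (19.4%, against 9.95% of all genes), 2 longer (background 5.66%) and 4 shorter (background 4.29%). This balance was not stable. Without peaks under a −log10 q of 5 it was 3 longer and 1 shorter of 30 tested, where 1194 of all 14504 genes passed. Without WT replicate 3 it was 2 longer and 7 shorter of 32 tested, where 2330 of all 15466 genes passed. After scaling, WT and cKO libraries did not overlap for 7 of the 31 (background 11.6%): Grik4, Grm3 and Gabra2 were longer in every cKO library (background 7.07%), and Grik1, Grik2, Grin2b and Grm8 were shorter (background 4.55%). Before scaling, the genotypes overlapped at each of these genes except Gabra2. The estimates were positive for 15 genes and negative for 16, with a median log2 change of -0.0069 beside 0.05 over all genes tested. Grm6 fell under the filter of 1000 bp mean length and was not tested.

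**Figure D3:**
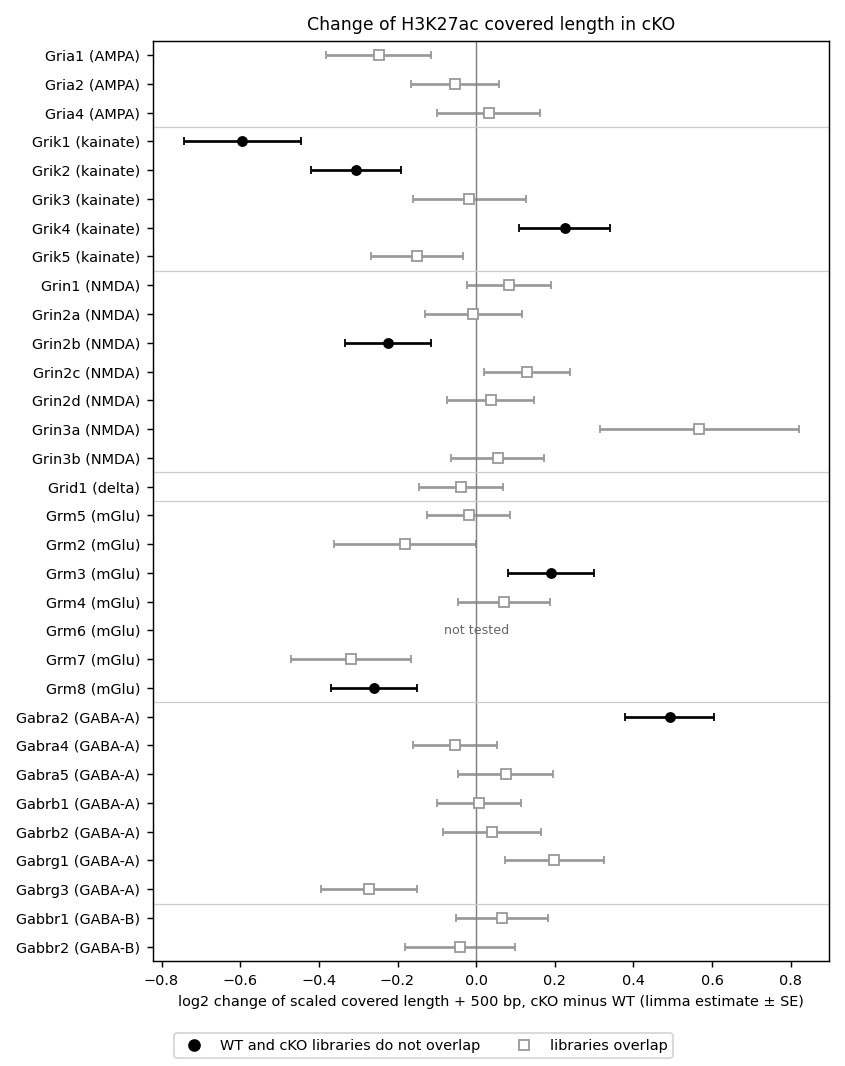
Log2 change of covered length (cKO minus WT, horizontal axis, limma estimate with its standard error as bars) for each subunit gene, with filled circles where the 3 WT and 3 cKO libraries do not overlap after scaling and open squares where they do. Gabra2 and Grin3a lie farthest to the right (0.49 and 0.57) and Grik1 farthest to the left (-0.59), and no gene passed the adjusted threshold.

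The smallest p among the subunit genes was that of Gabra2 (gene body chr5:70958392-71095849, mm10). Its scaled covered length was 8232, 7225 and 7916 bp in WT and 10685, 10420 and 12424 bp in cKO. Every cKO value lay above every WT value, and this also held before scaling, at 9423, 9145 and 5862 bp against 10706, 10142 and 10855 bp. The WT mean was 7791 ± 515 bp and the cKO mean 11177 ± 1089 bp (SD, n = 3 each). This is a log2 change of 0.49 ± 0.11 (SE, limma adjusted p = 0.079), 0.43 within batch A and 0.62 within batch B. With a pseudocount of 2000 bp the adjusted p was 0.0188, and with 100 kb on each side of the gene it was 0.034. Over all alternatives the limma adjusted p ranged from 0.0188 to 0.939.

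Nearly all of the Gabra2 cover came from 3 regions present in all 6 libraries. The region over the start (chr5:71092662-71097935) held 5021, 4164 and 2077 bp of peak in WT and 5107, 5100 and 5214 bp in cKO, before scaling. WT replicate 3 was far below the others, while WT replicate 1 lay just under the lowest cKO value. A region 83.0 kb into the gene (chr5:71009606-71012838) held 2070, 2412 and 2207 bp in WT and 3233, 2674 and 3182 bp in cKO, with no overlap. A region 98.3 kb into the gene (chr5:70994955-70997523) held 2332, 2402 and 1578 bp in WT and 2366, 2368 and 2265 bp in cKO, with overlap. The number of peaks in the window was similar, 3.50 on average in WT and 3.52 in cKO after scaling.

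The kainate genes included the lowest estimate. Grik1, which encodes a kainate subunit that can form channels alone (chr16:87895901-88290863), had 8451, 7897 and 8160 bp in WT and 7030, 4453 and 4571 bp in cKO. The WT values were close together and all above the cKO values, of which replicate 1 was nearest to them. The log2 change was -0.59 ± 0.15 (SE, limma adjusted p = 0.112), -0.51 within batch A and -0.77 within batch B. Before scaling the genotypes overlapped, since WT replicate 3 had 6043 bp and cKO replicate 1 had 7044 bp. The limma adjusted p fell to 0.00115 once cKO replicate 1 was left out, and with a pseudocount of 2000 bp it was 0.0333, in a range of 0.00115 to 0.954 over all alternatives. Within 2 kb of the gene ends the log2 change was 0.16.

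The marked end of Grik1 was similar in both genotypes, with 1525, 1591 and 1134 bp before scaling in WT and 1443, 1603 and 1482 bp in cKO (chr16:88289303-88290974). Regions inside the gene differed in both directions. At chr16:88111617-88113600 the peaks spanned 1899, 1944 and 295 bp in WT and 207, 200 and 0 bp in cKO, where WT replicate 3 was nearer to cKO than to the other WT libraries. At chr16:87973133-87974433 they spanned 1205, 1201 and 869 bp in WT and 762, 717 and 509 bp in cKO, with no overlap. In the other direction, they spanned 804, 632 and 464 bp in WT and 1137, 942 and 515 bp in cKO at chr16:88173769-88174905, with overlap.

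**Figure D4:**
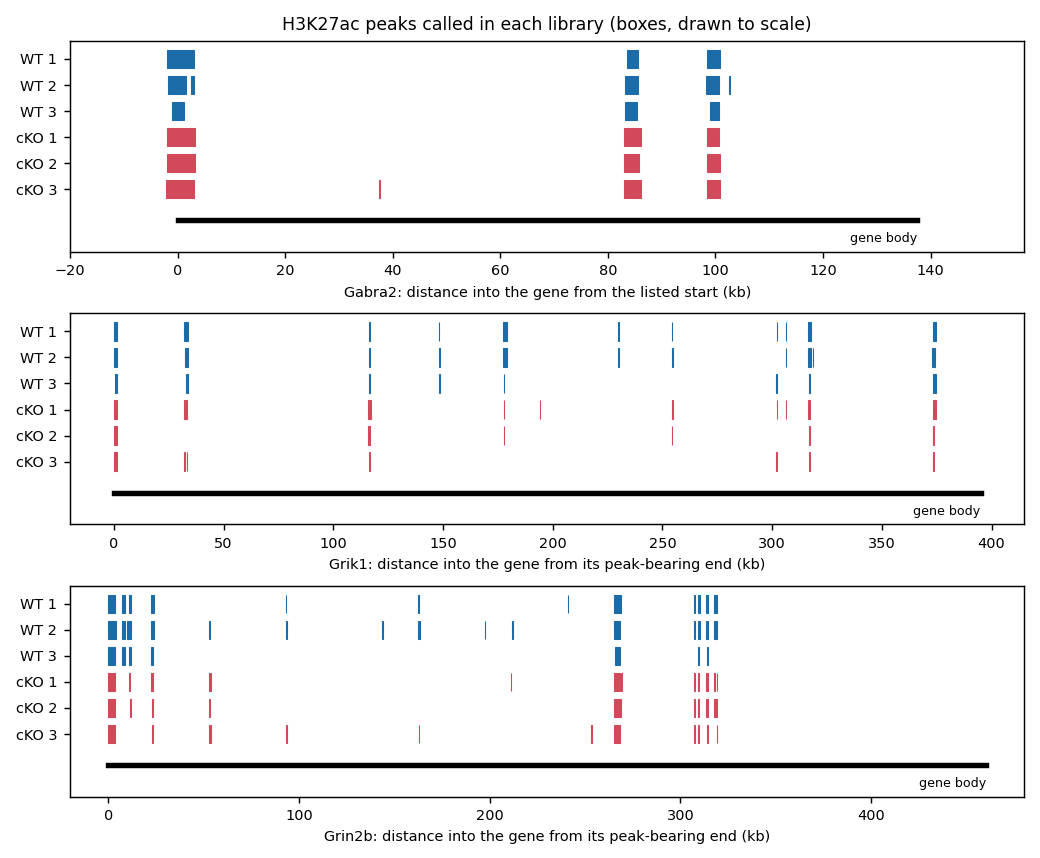
H3K27ac peaks called in each library (boxes to scale, WT blue, cKO red) along Gabra2, Grik1 and Grin2b, with distance from the listed start (Gabra2) or from the peak-bearing gene end (Grik1, Grin2b) in kb on the horizontal axis and the gene body as a black bar. Boxes 83.0 kb beyond the Gabra2 start are wider in cKO, the box at that start is narrowest in WT replicate 3, several boxes inside Grik1 are narrower or missing in cKO, and the region 7.42 kb into Grin2b has boxes in WT only.

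Grik2, another channel-forming kainate subunit gene, had 11204, 12473 and 11273 bp in WT and 9356, 8569 and 10113 bp in cKO. Its genotypes overlapped before scaling but not after it, and the log2 change was -0.30 ± 0.11 (SE, limma adjusted p = 0.354). Within 2 kb of the gene ends the value was 0.18, but the peak at the start ran past that window, whose edge cuts its cover. Of the covered bases, 99.7% lay inside the gene. Grik4 and Grik5 encode high-affinity subunits that need a partner of the other kind. Grik4 had 15633, 18631 and 15599 bp in WT and 20306, 18676 and 19411 bp in cKO, with WT replicate 2 just under cKO replicate 2 (log2 change 0.23 ± 0.12, SE, limma adjusted p = 0.564). Before scaling, WT replicate 2 had the longest Grik4 cover of all libraries, at 23583 bp. Grik5 had 18766, 15103 and 16177 bp in WT and 15397, 15203 and 14155 bp in cKO, which overlapped (-0.15). Grik3, the remaining channel-forming member, had WT values from 10535 to 20946 bp that enclosed the cKO range of 13950 to 16686 bp. Of the 5 kainate genes, 4 had negative estimates and 1 a positive one, and 0 were called.

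Among the NMDA genes, Grin2b (chr6:135713221-136173615) had 14299, 15707 and 14331 bp in WT and 12672, 13514 and 11569 bp in cKO. The genotypes overlapped before scaling but not after it, and the log2 change was -0.23 ± 0.11 (SE, limma adjusted p = 0.529). The marked end carried 4061, 4258 and 4020 bp before scaling in WT and 4038, 4098 and 3830 bp in cKO, and these ranges overlapped. A region 7.42 kb into the gene (chr6:136164579-136166192) was called in the 3 WT lists only, over 1260, 1614 and 1131 bp. The neighbouring region chr6:136161708-136163735 held 916, 2028 and 619 bp in WT and 446, 318 and 0 bp in cKO. Other regions went the opposite way: chr6:136119937-136120590 held 0, 479 and 0 bp in WT and 654, 473 and 557 bp in cKO, and chr6:135904223-135908519 averaged 3196 bp in WT and 3460 bp in cKO.

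Grin3a, a glycine-binding subunit gene, had the shortest cover of the NMDA class, at 613, 1790 and 621 bp in WT and 2859, 1240 and 1092 bp in cKO. WT replicate 2 was above 2 cKO libraries, so the genotypes overlapped. Its log2 change was 0.57 ± 0.25 (SE, limma adjusted p = 0.477), and it depended on single libraries. Without cKO replicate 2 the log2 change was 0.83 (limma adjusted p = 0.0193), without WT replicate 1 it was 0.26 and without cKO replicate 1 it was 0.29, and the adjusted p ranged from 0.0193 to 0.999 over the alternatives. Grin1 had 7012, 6647 and 6282 bp in WT and 7204, 7291 and 6721 bp in cKO, and only 33.5% of its covered bases lay in the gene. Grin2a had 5563, 5645 and 3239 bp in WT and 5491, 4607 and 3989 bp in cKO, with complete overlap. The estimates of Grin1, Grin2a, Grin2c, Grin2d and Grin3b ran from -0.0069 to 0.13.

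The AMPA and delta genes overlapped between genotypes. Gria1, whose product is a main AMPA subunit of pyramidal neurons, had 6329, 5774 and 3187 bp in WT and 4140, 4457 and 3598 bp in cKO (log2 change -0.25 ± 0.13, SE, limma adjusted p = 0.593). The estimate was -0.45 within batch A and 0.15 within batch B, and WT replicate 3 was the lowest of all 6. Gria2 had 8030, 7424 and 9558 bp in WT and 7954, 7816 and 8136 bp in cKO. Gria4, another pore-forming AMPA subunit gene, had 4257, 4111 and 3601 bp in WT and 4025, 3472 and 4847 bp in cKO. Neither genotype was set apart at these genes, with log2 changes of -0.05 and 0.03. Grid1, whose product binds cerebellins at synapses, had 10022, 9848 and 10142 bp in WT and 9748, 9183 and 10282 bp in cKO.

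Among the metabotropic genes, Grm5 of group I, which couples to phospholipase C, had 6973, 6803 and 6235 bp in WT and 6836, 6759 and 6141 bp in cKO; the genotypes overlapped. Groups II and III inhibit adenylyl cyclase. Grm3 of group II had 4381, 3824 and 4306 bp in WT and 4913, 4776 and 4773 bp in cKO. All cKO values were higher after scaling but not before it, with a log2 change of 0.19 ± 0.11 (SE, limma adjusted p = 0.627). Its sign was not stable, since the log2 change was -0.0054 once peaks under a −log10 q of 5 were dropped. Grm8 of group III had 6289, 6463 and 5632 bp in WT and 4889, 5035 and 5160 bp in cKO. All cKO values were lower after scaling but not before it, with a log2 change of -0.26 ± 0.11 (SE, limma adjusted p = 0.432). Grm6 had the shortest cover of the class, with 1861, 1420 and 513 bp in WT and 543, 501 and 729 bp in cKO. Grm2, Grm4 and Grm7 overlapped between genotypes and had opposite signs in batches A and B, at -0.51 and 0.48 for Grm2, -0.035 and 0.28 for Grm4 and -0.58 and 0.19 for Grm7.

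Apart from Gabra2, the GABA-A genes overlapped between genotypes. Gabrb1, a beta subunit gene with the longest cover of the class, had 15171, 14030 and 14969 bp in WT and 14463, 14268 and 15679 bp in cKO. Gabrg1, a gamma subunit gene with the shortest, had 1342, 1114 and 1932 bp in WT and 1597, 1785 and 1779 bp in cKO. Both rows placed the cKO values within or close to the WT range. Gabrg3 had 2278, 2601 and 2455 bp in WT and 1713, 2288 and 1836 bp in cKO, with cKO replicate 2 just above WT replicate 1. The log2 change was -0.27 ± 0.12 (SE, limma adjusted p = 0.48), and 0.45 once peaks under a −log10 q of 5 were dropped. Gabra4, Gabra5 and Gabrb2 had estimates of -0.05, 0.07 and 0.04. For a class sum over the 7 genes, bases shared by the windows of Gabra4 and Gabrb1 were counted a single time. The WT mean of this GABA-A cover was 34635 ± 1679 bp and the cKO mean 37874 ± 1996 bp (SD, n = 3 each). The difference in means of Gabra2 alone exceeded that of the class sum.

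Both GABA-B genes overlapped between genotypes. Gabbr1 had 12033, 9962 and 13837 bp in WT and 12014, 12227 and 13023 bp in cKO (log2 change 0.07). Gabbr2 had 11278, 9412 and 7070 bp in WT and 9298, 8133 and 9086 bp in cKO (-0.04). In both genes the WT libraries spread more widely than the cKO libraries, with SDs of 1939 and 2108 bp in WT and 532 and 621 bp in cKO.

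The number of peaks per window gave 0 calls among 29 subunit genes tested, beside 0.29% of 12757 genes (limma, adjusted p below 0.05). At an unadjusted limma p below 0.05, 5 subunit genes passed (background 8.77%), 4 with fewer peaks in cKO (background 3.65%) and 1 with more (background 5.13%). The lowest p was that of Gria2, whose scaled peak number averaged 4.76 in WT and 3.13 in cKO (log2 change -0.49, limma adjusted p = 0.306) while its covered length was similar. Before scaling Gria2 had 4, 7 and 4 peaks in WT and 3, 4 and 2 in cKO. Grik2 averaged 13.8 peaks in WT and 9.85 in cKO (-0.44, limma adjusted p = 0.394), from 17, 20 and 8 in WT and 8, 9 and 11 in cKO before scaling. Fewer peaks were also listed at Gabrg3 (-0.39, limma adjusted p = 0.445) and Grm7 (-0.33, 0.56), and more at Grm3 (0.37, 0.449). None of these 5 passed the adjusted threshold, and in each the unscaled peak numbers of the genotypes overlapped or met. With lists of equal length 0 subunit genes had an unadjusted limma p below 0.05 in either direction, where 510 of all 12002 genes did. Without scaling 1 had fewer peaks and 0 had more, where 466 of all 12899 genes passed.

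Regions called in every library of one genotype and in none of the other were few. Merging the peaks of the 6 lists gave 325 regions in the windows of the subunit genes, of which 137 (42.2%) were present in all 6 libraries, beside 48.6% of the 63015 regions in windows of all protein-coding genes. A WT-only region lay in 4 of the 32 windows, where 2.49% of all gene windows held one, and a cKO-only region in 2 (background 1.17%). Since most subunit genes are long, the density per length is the closer measure: 0.374 WT-only regions per Mb against 0.341 in all gene windows, and 0.187 cKO-only regions per Mb against 0.135. All 6 regions lay inside the gene bodies, at least 7.42 kb from the gene end or start used as reference.

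Besides the Grin2b region, WT-only regions lay in Grin2a (chr16:9735547-9736489), with 380, 782 and 191 bp, in Grik1 (chr16:88142218-88142908), with 189, 691 and 544 bp, and in Gabrb1 (chr5:71955302-71956368), with 770, 667 and 652 bp. The authors' −log10 q values there ran from 4.10 to 8.34 in Grin2a, 2.37 to 4.08 in Grik1 and 2.01 to 2.22 in Gabrb1, and from 4.24 to 5.76 in Grin2b. The Gabrb1 region was thus the weakest of the 4 by this value. The cKO-only regions lay in Grid1 (chr14:34919521-34920101), with 175, 290 and 545 bp, and in Grm5 (chr7:87761695-87762605), with 911, 208 and 419 bp. Their −log10 q values ran from 1.62 to 4.50 in Grid1 and from 2.44 to 3.16 in Grm5. When each list was cut to its 48168 strongest peaks, only the regions in Grin2a and Grin2b of these 6 were still limited to a single genotype, and other regions became so, for totals of 6 WT-only and 2 cKO-only regions.

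Genes that work with these receptors were also mostly marked at their starts, and none was called. Of 16 genes of transmitter synthesis and transport, 14 were marked at a start in all 6 libraries (background 59.4%), the exceptions being Slc17a8 and Slc1a2, a vesicular and a glial glutamate transporter gene. Of 15 tested, 0 were called by limma (background 0.69%) and 1 had an unadjusted p below 0.05 (background 9.95%), the glutamate transporter gene Slc1a1 (log2 change -0.24, limma adjusted p = 0.5). Of 32 genes for postsynaptic scaffolds and receptor partners, 30 were marked and 0 called, with 2 longer and 1 shorter at an unadjusted limma p below 0.05. Neither list thus exceeded the 9.95% of all genes that passed unadjusted. The 3 were the scaffold gene Dlgap3 (0.29, limma adjusted p = 0.343), the AMPA receptor partner gene Shisa9 (0.35, 0.41) and the scaffold gene Homer2 (-0.31, 0.372). By the definition used here, Dlgap3 was marked at its start in none of the libraries. The next smallest p was that of Kctd16, whose product binds GABA-B receptors (-0.40, limma adjusted p = 0.511). All 4 chloride transporter genes were marked and 0 were called, and Slc12a5 and Slc12a2, which export and import chloride, had log2 changes of 0.07 and 0.08. The median log2 changes of the 3 lists were 0.04, 0.05 and 0.07, beside 0.05 over all genes.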

How the data were processed

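H3K27ac was mapped by native chromatin immunoprecipitation in 6 libraries. The submitters' processing notes name MACS2 2.1.1, Bowtie2 2.2.8, cutadapt and FastQC and the mm10 build. The role of each tool is not stated there. The authors' deposited broad peak lists hold positions, a score (not used), a fold enrichment ratio and, for each peak, −log10 values of p and q. The 6 input libraries were not analysed here. Peak lists hold no read counts, so depth is unknown.

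Gene bodies and starts came from RefSeq tables of GRCm38.p6, the assembly of mm10, without exons. Covered length (body with 20 kb flanks) was scaled to the list total, put on a log2 scale with a pseudocount of 500 bp and compared with limma 3.58.1 (R 4.3.3) with batch as covariate over genes averaging at least 1000 bp. Peak number was tested likewise (pseudocount 1, mean at least 2). All adjusted p-values are Benjamini-Hochberg values over all genes tested. Regions merged peaks overlapping by at least 1 bp. Scripts used Python 3.11.15 and were tested on simulated data.

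The subunit genes and lists were chosen with earlier results of these data known. Per-library values are given for the 2 longest and the shortest genes per class, those with an unadjusted p below 0.05 or no overlap between genotypes, and those with a region of a single genotype. From each partner list up to 4 genes with the smallest p could be named. Alternatives covered the peak threshold, list length, each library, batch, replicate block, pseudocount, filter, scaling, window and region definition. Scaling to the total within gene windows was added after seeing the data.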

Additional observations from a re-analysis of the deposited data

How the results depend on the processing

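The number of subunit genes called in covered length was 0, and became 1 with a replicate block (Grik1, limma adjusted p = 0.0403), 2 with a pseudocount of 2000 bp (Grik1, -0.49, and Gabra2, 0.43), 1 with 100 kb flanks (Gabra2, 0.50) and 0 to 1 when a library was left out (Grik1, -0.79, without cKO replicate 1; Grin3a, 0.83, without cKO replicate 2). The estimate reversed for Grm3 (-0.0054) and Gabrg3 (0.45) with peaks of −log10 q of at least 5, and for Grik1 (0.16), Grik2 (0.18) and Grin2b (0.087) within 2 kb of the gene ends. The Grin2b peak exceeds that window, which held 2260 to 2319 bp in every library before scaling, so its sign there follows the list totals. The peak at the Grik2 start also runs past that window, whose edge cuts its cover. Peak number gave 0 calls among the subunit genes in all 13 alternatives. Fully marked starts numbered 20 to 29 over the alternatives, beside 28, with 20 at a −log10 q of at least 5. The 59.4% of all genes belongs to the main setting, so it cannot be set beside that 20.

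Over all genes, the 106 calls in covered length became 38 at a −log10 q of at least 5, 58 with equal-length lists, 39 when batch was not modelled, 39 at a pseudocount of 100 bp and 208 at 2000 bp, 0 without the filter (1807 at an unadjusted limma p below 0.05), 1 without scaling, 18 with quantile normalization, 42 scaled to the gene-window total (chosen after seeing the data), 42 over gene bodies alone, and 2 to 232 when a library was left out. The low values of 6, 3 and 2 came without WT replicate 2, WT replicate 3 and cKO replicate 3, and the high values of 232 and 225 without cKO replicates 1 and 2. The 37 calls in peak number became 22, 166, 6, 10 and 104 (39 with more and 65 with fewer peaks) with the −log10 q minimum, equal-length lists, no batch covariate, no filter and no scaling, and 0 to 113 without a library (113 without cKO replicate 2, 88 without cKO replicate 1, 0 without any of the others). The number of WT-only regions, 4 in the main setting, was 2 at the −log10 q minimum and 4 to 24 without a library (24 without WT replicate 3, 8 without cKO replicate 1). The number of cKO-only regions, 2 in the main setting, was 1 at that minimum and 0 when at least 50% of the region had to be covered. It was 2 to 4 without a library (4 without WT replicate 2 and 4 without cKO replicate 2). The regions counted at the −log10 q minimum were not those named above, each of which fell under it in at least 1 library of its genotype. The cause of these changes was not tested.

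Same-numbered samples correlated at 0.13, 0.06 and 0.26 in their deviations from the group means, so the numbers were not taken as pairs, and the replicate block gave 168 calls in covered length and 89 in peak number.

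Peak height does not enter covered length. Without reads, a missing peak in a short list and a missing mark cannot be told apart, and WT replicate 3 had the shortest list. Windows of 15 subunit genes also hold other genes.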

Other observations

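Some subunit genes have several listed starts, and only those of Grm8 differed in whether they were marked. The third listed start of Grm8 (chr6:28126426) had 0 bp of peak in all 6 libraries, while its first start averaged 1768 bp. Of the 31 subunit genes tested for covered length, 14 had estimates of a single sign in both batches and 17 had opposite signs. The 9 with an unadjusted p below 0.05 or no overlap between genotypes all had a single sign in both batches, but they were chosen from the same values.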
